A study of Mus musculus with 7 samples.

Results

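The genes described here were close to silent in TRAMP-C1 cells carrying an empty lentiviral vector and clearly read out in cells carrying a PAX8-NFE2L2 fusion gene. They were chosen by level in CPM, a gene's read count scaled to a library total of 1e+06 reads assigned to genes. A gene had to lie under 0.5 CPM in each of 3 empty vector libraries and at 2 CPM or more in each of 3 fusion libraries. Of 46603 gene rows, 31454 met the first limit, 11776 met the second and 34 met both. Symbols starting with Gst, Abc, Akr, Cyp, Ugt, Sult, Aldh, Cdh, Pcdh, Il1, Cxcl, Mmp, Krt, Col or Slc, and Pax8, Chl1, Gpbar1, Foxa1 and Insm1, were set aside, which removed 7 of the 34 (Pax8, Chl1, Il1f9, Gsta2, Slc4a4, Gpbar1 and Gsta1) and left 27. Because the choice used the levels with the fusion and with the empty vector, the difference between these groups is described for the 27 genes and not tested.

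TRAMP-C1 is a prostate epithelial tumour line from a C57BL/6 TRAMP mouse, whose transgene gives rise to prostate cancer. Of 3 groups, the fusion group (3 libraries) received lentivirus made from the Lv229 plasmid carrying the fusion gene, and the empty vector group (3 libraries) received virus from the matching plasmid without it. Both were left with virus for 12 h and then in fresh medium for 24 h. The WT group is 1 library of the same line whose label names no vector, and all 7 libraries share the TRAMP strain background. Polyadenylated RNA was sequenced as single reads of 50 bp. The libraries of a group are separate samples of 1 cell line, no label ties them to separate cultures, and p-values therefore measure the spread between these samples.

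PAX8 is a paired-box transcription factor that drives development of the thyroid and kidney. NFE2L2 encodes NRF2, a transcription factor that is normally held back by KEAP1 and that, with a small MAF partner, binds antioxidant response elements and turns on genes of glutathione, quinone and drug metabolism. A fusion of the pair joins parts of a lineage factor and of a stress-response factor in 1 protein.

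Reads assigned to genes numbered 26368182 to 55114667 in fusion libraries, 40089266 to 59597170 in empty vector libraries and 52859158 in the WT library. A count of 0 in a library therefore allows a level of up to 0.0503 to 0.114 CPM, counting error only. Mouse Pax8, the gene of 1 fusion partner, lay at 6.40, 8.46 and 5.65 CPM in fusion libraries, against 0.0336, 0.0363 and 0.224 CPM in empty vector libraries and 0.0378 CPM in the WT library. Nfe2l2 lay at 124 to 145 CPM in fusion libraries, against 115 to 125 CPM in empty vector libraries and 113 CPM in the WT library. The labels do not give the species of the construct's sequence, so transgene reads may be counted only in part. Defining genes of the labelled prostate epithelium were partly absent: Pbsn stayed under 0.1 CPM in all 7 libraries and Epcam under 0.6 CPM. A fibroblast and mesenchyme list of 11 genes summed to 13570 to 20324 CPM in fusion libraries, against 15454 to 23850 CPM in empty vector libraries and 22159 CPM in the WT library. In bulk RNA, fewer cells with a transcript and less RNA per cell cannot be told apart.

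Mean levels of the 27 genes with the fusion ran between 2.54 CPM (Cftr) and 73.9 CPM (Sprr2g), with a median of 5.25 CPM. The medians of the same genes were 0.104 CPM for the empty vector means and 0.0378 CPM in WT. Per kilobase of exon the genes were modest transcripts even with the fusion, with a median of 2.63 CPM per kb against 4.56 CPM per kb over 16666 tested genes, and 9 of the 27 lay above that median. With the empty vector, 12 of the 27 averaged under 0.1 CPM, and Cpn1 and Kirrel2 had 0 reads in all 3 libraries. GENCODE lists 23 of the 27 as protein coding. The others are Sprr2g, a polymorphic pseudogene (a gene that is intact in some strains), Trdc, a T cell receptor constant segment, Gm20658, an antisense RNA, and Gm9987, a pseudogene.

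**Figure D1:**
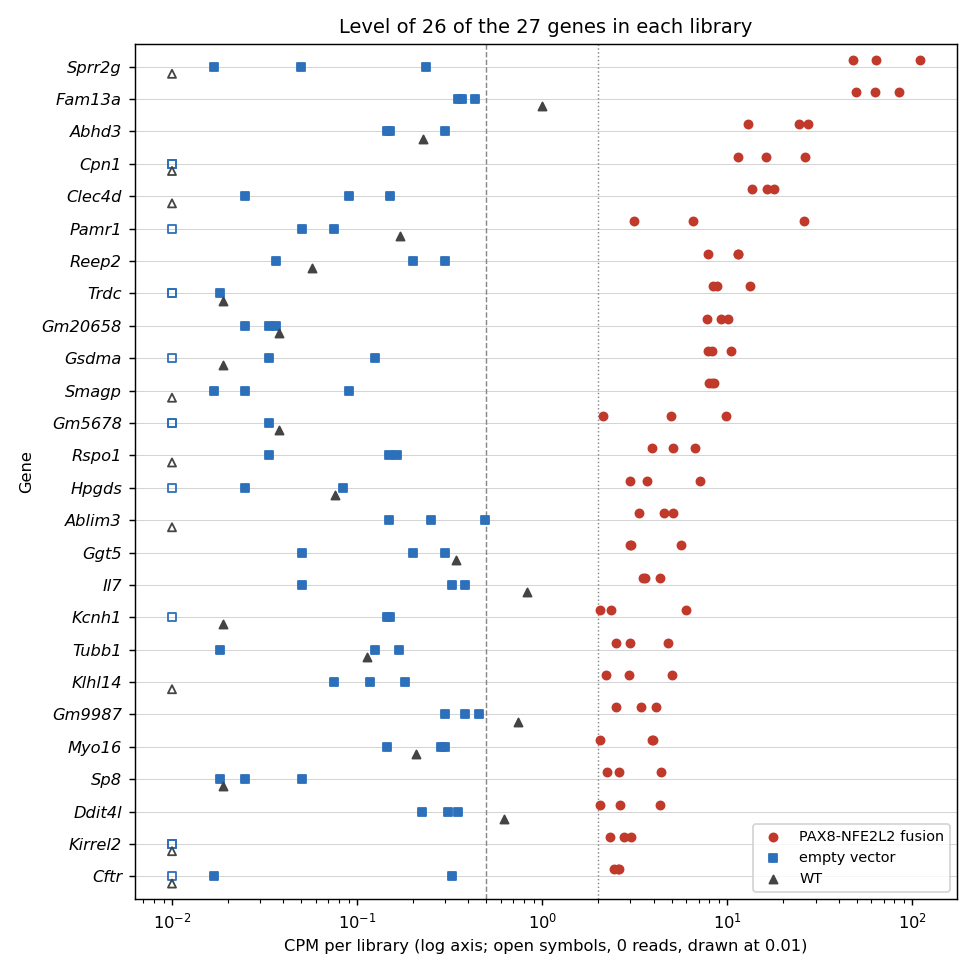
Level of 26 of the 27 genes (rows, highest mean with the fusion on top) in CPM on a log axis, with 1 point per library for 3 fusion, 3 empty vector and 1 WT library. Open symbols stand for 0 reads and are drawn at 0.01, and the dashed and dotted lines mark 0.5 and 2 CPM. By the choice of genes all fusion points lie right of the dotted line and all empty vector points left of the dashed line, while the WT points of Fam13a, Il7, Gm9987 and Ddit4l lie right of the dashed line.

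No gene family was represented by more than 1 of the 27 genes. Families set aside by symbol could not appear here, and Gsta1 and Gsta2, of the same family, had met both limits. They lay on 15 chromosomes, with 4 each on chromosomes 6 and 18 and 3 on chromosome 3, and no pair lay within 200 kb of each other. The closest pair, Gm20658 and Sp8 on chromosome 12, was 2.71 Mb apart. Textbook roles were assigned by hand. By these, 3 were placed under epithelial barrier, 3 under enzymes of lipid and glutathione metabolism, 4 under secreted proteins and 2 under immune receptors. A further 1 is an adhesion molecule, 3 move ions and 5 were placed under cytoskeleton or membrane shape. The rest are 3 regulators and 3 predicted genes without an assigned role. A list of 55 NRF2 targets and a list of 30 PAX8-linked thyroid and kidney genes contained none of the 27. The exclusions by symbol shaped this, because both lists hold genes with the prefixes set aside. Gsta1 and Gsta2, both on the NRF2 list, met both CPM limits and were removed in this way.

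The RefSeq promoter table, on GRCm38.p6, held a window from 250 bases before to 50 bases after the start for 14 of the 27 genes. The letters TGACNNNGC, the core of the antioxidant response element, were searched on both strands, where N is any base. They occurred in the windows of Tubb1, Ddit4l and Smagp, which is 21.4% of the 14, against 14.0% of 27025 windows of all genes. With the looser letters TGANNNNGC, which include the first, 8 of 14 windows matched (57.1%), against 45.0% of all. A match describes the letters and does not show binding. The 250 bases before the RefSeq start of these 3 genes are shown 5′ to 3′ on the gene's strand, with the TGACNNNGC match in capitals, because they hold the element's core among the 14 windows searched. Tubb1 is chr2:174450345-174450594 on the plus strand, Ddit4l chr3:137623422-137623671 on the plus strand (its RefSeq start lies inside the GENCODE gene) and Smagp chr15:100636941-100637190 on the minus strand.

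Tubb1: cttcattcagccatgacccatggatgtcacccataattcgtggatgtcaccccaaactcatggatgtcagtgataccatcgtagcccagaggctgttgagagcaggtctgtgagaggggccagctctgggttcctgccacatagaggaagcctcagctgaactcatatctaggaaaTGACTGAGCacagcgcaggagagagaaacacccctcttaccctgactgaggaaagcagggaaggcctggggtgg

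Ddit4l: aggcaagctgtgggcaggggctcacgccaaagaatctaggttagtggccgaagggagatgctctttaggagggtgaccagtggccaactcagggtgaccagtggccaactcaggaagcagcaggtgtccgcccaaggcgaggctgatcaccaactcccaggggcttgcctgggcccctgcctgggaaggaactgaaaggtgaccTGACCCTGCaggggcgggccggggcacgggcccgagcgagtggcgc

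Smagp: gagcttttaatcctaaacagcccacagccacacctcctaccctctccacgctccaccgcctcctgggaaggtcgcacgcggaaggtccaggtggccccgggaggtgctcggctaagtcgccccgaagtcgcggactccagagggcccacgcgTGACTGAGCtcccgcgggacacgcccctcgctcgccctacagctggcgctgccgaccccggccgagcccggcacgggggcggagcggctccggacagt

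Tubb1 and Smagp carried the same letters, TGACTGAGC, at 74 and 98 bases before the start, and Ddit4l carried TGACCCTGC at 46 bases before it.

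Among genes of the epithelial barrier, Sprr2g had the highest level of all 27, also per length. Its family encodes small proline-rich proteins of the cornified envelope, the cross-linked shell of surface epithelia. Sprr2g itself is listed as a polymorphic pseudogene, and whether its transcript codes for protein in this line was not tested. It lies at chr3:92373915-92375229 on the plus strand. Sprr2g lay at 47.9, 110.1 and 63.7 CPM in fusion libraries, against 0.0168, 0.236 and 0.0499 CPM in empty vector libraries and 0 CPM in the WT library. That is 10267 reads with the fusion against 16 reads with the empty vector, and mean levels of 73.9 ± 32.3 CPM against 0.101 ± 0.118 CPM (SD, n = 3 each), a ratio of 733. Per kilobase of exon it reached 114 CPM, the next of the 27 being Clec4d at 9.97 CPM per kb, and none of its 50-base windows occurred in another annotated gene. Gsdma, a gasdermin that forms membrane pores in skin and upper gut epithelium (chr11:98664351-98677708), lay at 8.24, 7.86 and 10.5 CPM in fusion libraries, against 0.0336, 0 and 0.125 CPM in empty vector libraries and 0.0189 CPM in WT. Its mean with the fusion was 168 times that with the empty vector, and 8.26% of its 50-base windows were shared with its neighbours in the family, Gsdma2 and Gsdma3. Smagp, a small transmembrane glycoprotein found at cell contacts in human epithelia (chr15:100621339-100636940), was the steadiest gene of the group: 7.94, 8.29 and 8.46 CPM in fusion libraries, against 0.0168, 0.0908 and 0.0249 CPM in empty vector libraries and 0 CPM in WT.

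A list of 10 keratinocyte markers summed to 10.8 to 29.9 CPM in fusion libraries, against 10.4 to 21.4 CPM in empty vector libraries and 8.57 CPM in the WT library. The group ranges overlapped, none of its 5 tested genes passed the test, and Krt1, Sprr1b, Dsg3, Krt6a and Flg had 0 reads in all 7 libraries. The other genes of the list were read in each fusion library. Krt10 lay there at 3.34 to 7.13 CPM, Sprr1a at 2.58 to 22.8 CPM and Sbsn at 2.58 to 3.48 CPM. Lor lay at 0.209 to 0.290 CPM and Ivl at 0.0571 to 0.290 CPM. Sprr2g was thus read in libraries with reads of some genes of the list and none of others. Whether keratinocyte-like cells were present was not tested.

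Of the enzymes, Abhd3 had the highest level per length, 9.22 CPM per kb with the fusion, against 0.717 for Hpgds and 0.656 for Ggt5. It is a serine hydrolase that cleaves phosphatidylcholines with medium-length chains in mouse. Abhd3 lay at 12.9, 24.5 and 27.2 CPM in fusion libraries, against 0.151, 0.145 and 0.299 CPM in empty vector libraries and 0.227 CPM in WT, and its mean was 108 times that with the empty vector. Hpgds, the glutathione-dependent synthase of prostaglandin D2 and the sigma-class glutathione transferase (chr6:65117293-65144908), lay at 3.69, 2.99 and 7.13 CPM in fusion libraries, against 0.0839, 0 and 0.0249 CPM in empty vector libraries and 0.0757 CPM in WT. Ggt5, a gamma-glutamyl transferase that cuts glutathione conjugates such as leukotriene C4 (chr10:75589340-75617200), lay at 2.99, 5.62 and 3.03 CPM in fusion libraries, against 0.0503, 0.20 and 0.299 CPM in empty vector libraries and 0.341 CPM in WT. The WT level of Ggt5 lay above all 3 empty vector levels, and those of Hpgds and Abhd3 lay within theirs.

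The 4 secreted proteins ran between 0.674 CPM per kb (Il7) and 4.86 CPM per kb (Cpn1) with the fusion. Cpn1, the catalytic subunit of carboxypeptidase N, which trims kinins and complement peptides in plasma and is made in liver, lies at chr19:43956307-43986556. Cpn1 had 11.4, 16.3 and 26.2 CPM in fusion libraries and 0 reads in all 3 empty vector libraries and in WT. Against a floor of 3 counts over the empty vector group it was at least 841-fold higher. Pamr1, a secreted protein with a peptidase-like domain (chr2:102550012-102643041), lay at 6.53, 26.1 and 3.15 CPM in fusion libraries, against 0.0503, 0 and 0.0748 CPM in empty vector libraries and 0.170 CPM in WT. Its mean of 11.9 ± 12.4 CPM (SD, n = 3) rested largely on fusion replicate 2. Rspo1, an R-spondin that strengthens WNT signalling (chr4:124986430-125009099), lay at 3.92, 6.73 and 5.08 CPM in fusion libraries, against 0.0336, 0.163 and 0.150 CPM in empty vector libraries and 0 CPM in WT. Il7, a cytokine needed for lymphocyte development (chr3:7569994-7613760), lay at 3.58, 4.35 and 3.53 CPM in fusion libraries, against 0.0503, 0.381 and 0.324 CPM in empty vector libraries and 0.832 CPM in WT. A list of 10 hepatocyte markers summed to 0.895 to 4.32 CPM in fusion libraries, against 0.726 to 2.54 CPM in empty vector libraries and 0.851 CPM in WT. These ranges overlapped, and Tat, Ambp, Fgb and Fgg had 0 reads in every library.

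Clec4d and Trdc are receptors of immune cells. Clec4d, a C-type lectin of myeloid cells that recognises mycobacterial glycolipid (chr6:123262111-123275265), lay at 17.97, 16.3 and 13.5 CPM in fusion libraries, against 0.151, 0.0908 and 0.0249 CPM in empty vector libraries and 0 CPM in WT. It was the 1 gene of the 27 with its highest level in fusion replicate 1. Trdc, the constant segment of the T cell receptor delta chain (chr14:54142851-54148868), lay at 8.85, 13.2 and 8.38 CPM in fusion libraries, against 0, 0.0182 and 0 CPM in empty vector libraries and 0.0189 CPM in WT. With 1414 reads against 1 read, the ratio of pooled counts was 1633, with an exact 95% counting interval of 293 to 64550. Trdc overlaps Trdv5 and Gm43434 on the opposite strand, and 5.92% of its 50-base windows occurred in other genes.

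A list of 10 immune cell markers summed to 62.2 to 87.4 CPM in fusion libraries, against 30.2 to 34.0 CPM in empty vector libraries and 30.3 CPM in WT, so that the fusion libraries lay above both other groups. Most of this sum was Cd14, at 58.7, 83.1 and 64.1 CPM in fusion libraries, against 27.7, 28.3 and 31.8 CPM in empty vector libraries, and Cd14 was the 1 of 3 tested genes of the list that passed the test (log2 fold change 1.26, edgeR adjusted p = 0.022). Adgre1, Tyrobp and Cd3e had 0 reads in all 7 libraries, and Ptprc stayed under 0.5 CPM. Cd68 and Csf1r, also on the list, were read in all 7 libraries. In fusion libraries Cd68 lay at 1.87, 3.3 and 2.62 CPM and Csf1r at 1.33, 0.798 and 0.645 CPM. Clec4d and Trdc thus lay at 8 CPM or more in libraries with reads of some genes of the list and none of others. Whether immune cells were present was not tested.

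Kirrel2, an adhesion molecule of the immunoglobulin superfamily known from podocytes and pancreatic islets (chr7:30447534-30457690), lay at 2.32, 3.03 and 2.77 CPM in fusion libraries and had 0 reads in all 3 empty vector libraries and in WT. It was at least 139-fold higher, against 3 counts over the empty vector group. Of the ion channels, Kcnh1, a voltage-gated potassium channel (chr1:192190774-192510159), lay at 2.34, 5.95 and 2.05 CPM in fusion libraries, against 0.151, 0.145 and 0 CPM in empty vector libraries and 0.0189 CPM in WT. Kcnh1 was highest in fusion replicate 2 and lowest in fusion replicate 3. Cftr, the chloride channel of epithelia that is defective in cystic fibrosis (chr6:18170687-18322768), lay at 2.46, 2.56 and 2.62 CPM in fusion libraries, against 0.0168, 0 and 0.324 CPM in empty vector libraries and 0 CPM in WT.

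Of the genes placed under cytoskeleton or membrane shape, Fam13a had the second highest CPM of the 27. It lies at chr6:58932090-59024549. Fam13a lay at 63.2, 84.3 and 49.8 CPM in fusion libraries, against 0.369, 0.436 and 0.349 CPM in empty vector libraries and 1.00 CPM in WT, and its mean with the fusion was 171 times that with the empty vector. Because its exons add up to 10505 bases, it reached 6.26 CPM per kb. Reep2, which shapes endoplasmic reticulum membrane, lay at 11.5, 11.5 and 7.85 CPM in fusion libraries, against 0.201, 0.0363 and 0.299 CPM in empty vector libraries and 0.0568 CPM in WT. Ablim3, an actin-binding LIM protein, lay at 3.33, 5.10 and 4.55 CPM in fusion libraries, against 0.252, 0.490 and 0.150 CPM in empty vector libraries and 0 CPM in WT. Tubb1, the beta tubulin of platelets and megakaryocytes (chr2:174450695-174457882), averaged 3.43 ± 1.20 CPM with the fusion, against 0.104 ± 0.0770 CPM with the empty vector (SD, n = 3 each) and 0.114 CPM in WT. Myo16, an unconventional myosin known from neurons (chr8:10153911-10634742), averaged 3.31 ± 1.09 CPM with the fusion, against 0.243 ± 0.0852 CPM with the empty vector (SD, n = 3 each) and 0.208 CPM in WT. All 5 had non-overlapping fusion and empty vector levels, which the choice of genes fixes.

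The 3 regulators were low per length even with the fusion, at 0.674 (Sp8), 0.768 (Klhl14) and 1.03 CPM per kb (Ddit4l), against the median of 2.63 over the 27. Sp8, a zinc-finger transcription factor of limb and forebrain development (chr12:118846329-118852576), lay at 2.23, 2.59 and 4.4 CPM in fusion libraries, against 0.0503, 0.0182 and 0.0249 CPM in empty vector libraries and 0.0189 CPM in WT. Klhl14, a kelch protein with a BTB domain, lay at 2.21, 2.94 and 5.04 CPM in fusion libraries, against 0.117, 0.182 and 0.0748 CPM in empty vector libraries and 0 CPM in WT. Of its 50-base windows, 11.8% were shared with 4930426D05Rik, which overlaps it on the opposite strand. Ddit4l, an inhibitor of mTORC1 signalling (chr3:137621612-137628333), lay at 2.06, 2.65 and 4.32 CPM in fusion libraries, against 0.352, 0.309 and 0.224 CPM in empty vector libraries and 0.624 CPM in WT. All 3 regulators had their highest level in fusion replicate 3 and their lowest in fusion replicate 1.

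The 3 predicted genes each lie beside or across a better known gene. Gm20658, an antisense RNA across Vipr2 (chr12:116102769-116138648), lay at 7.81, 9.31 and 10.1 CPM in fusion libraries, against 0.0336, 0.0363 and 0.0249 CPM in empty vector libraries and 0.0378 CPM in WT. Gm9987, a pseudogene 0.217 kb from Sh3rf3 on the opposite strand (chr10:58812574-58813142), lay at 3.41, 4.12 and 2.50 CPM in fusion libraries, against 0.453, 0.381 and 0.299 CPM in empty vector libraries and 0.738 CPM in WT. Its ratio of means, 8.85, was the smallest of the 27. Gm5678, which GENCODE lists as protein coding and RefSeq as a pseudogene (chr16:93628097-93630451), lay at 2.13, 4.99 and 9.90 CPM in fusion libraries, against 0.0336, 0 and 0 CPM in empty vector libraries and 0.0378 CPM in WT. The ratio of its pooled counts, 648 reads against 2 reads, was 374, with an exact 95% counting interval of 103 to 3097.

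Gm5678 shared 90.63% of its bases with Cbr1, the carbonyl reductase 17.6 kb away, and 73.16% with Cbr3. Of its 50-base windows, 5.39% occurred in Cbr1. Set beside the separate count of Cbr1, the reads of Gm5678 equalled 1.97, 2.82 and 5.73% of it in fusion libraries, against 0.101, 0 and 0% in empty vector libraries and 0.130% in WT. This is a description, since the Gm5678 levels entered the choice. Reads that align to several places were not counted to a gene. In all, 11 of the 27 genes overlap an annotated gene on the opposite strand. Without a stated strand setting the reads of such pairs cannot be told apart. Cftr overlaps Gm15595 and Gm15592, of which only 1 lies on the opposite strand.

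The 27 genes differed in how evenly they were read in the 3 fusion libraries. The ratio of the highest to the lowest fusion library had a median of 1.88, against 1.51 in 8184 other tested genes at 2 CPM or more in each fusion library and with a mean in the same range. It was smallest in Smagp and Cftr, at 1.07 each, followed by Il7 at 1.23, Gm20658 at 1.29 and Kirrel2 at 1.30. It was largest in Pamr1 at 8.28, and among the others it was 4.64 in Gm5678, 2.91 in Kcnh1 and 2.38 in Hpgds. The orders differed between genes: 1 gene was highest in fusion replicate 1, 14 in replicate 2 and 12 in replicate 3, while 14 were lowest in replicate 1, 3 in replicate 2 and 10 in replicate 3. Pamr1 and Kcnh1 had replicate 2 above replicate 3, whereas Gm5678 and Hpgds had replicate 3 on top. Fusion replicate 3 came from another sequencing lane than replicates 1 and 2 and had the fewest reads, and the part of lane and depth in these orders was not tested.

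**Figure D2:**
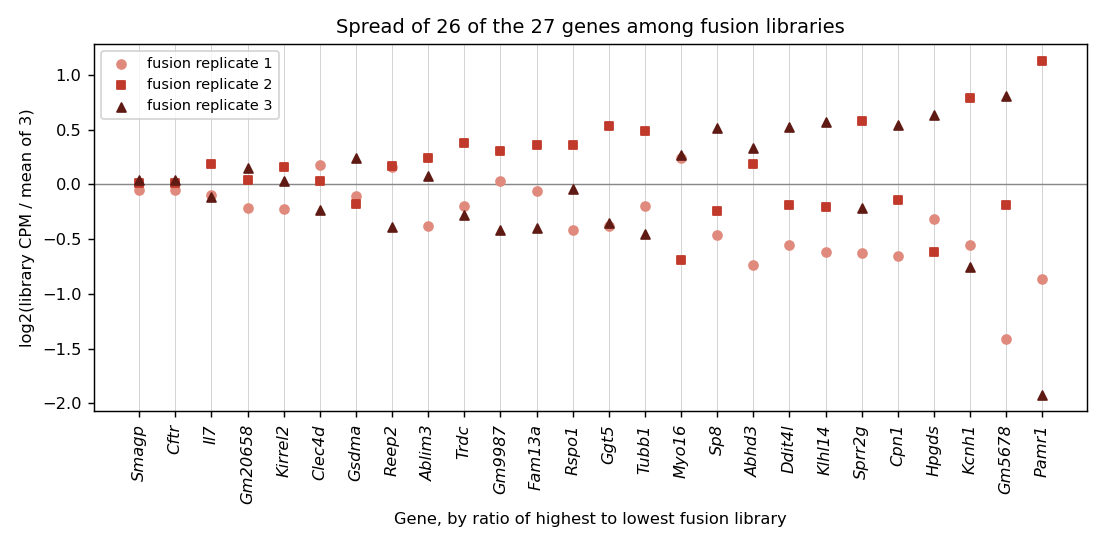
Level of 26 of the 27 genes in the 3 fusion libraries, as log2 of the library's CPM over the mean of the 3, with genes ordered by the ratio of highest to lowest library. Smagp and Cftr lie on the line at 0 in all 3 libraries, and Pamr1 at the right end has fusion replicate 2 near 1 and replicate 3 near -2.

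The WT library, which the choice of genes did not use, gives the level of the 27 genes without any vector named. In it 23 of the 27 genes lay under 0.5 CPM and 9 had 0 reads. The 4 others were Fam13a at 1.00 CPM (53 reads), Il7 at 0.832 CPM (44 reads), Gm9987 at 0.738 CPM (39 reads) and Ddit4l at 0.624 CPM (33 reads). Their empty vector levels lay at 0.349 to 0.436, 0.0503 to 0.381, 0.299 to 0.453 and 0.224 to 0.352 CPM in the same order of genes, so that WT was above each empty vector library in all 4. At 0.5 CPM or more in WT there were 0.416% of all 31454 genes under the empty vector limit and 6.78% of the 1636 of them that passed the low-count filter, as all 27 genes did. Among the 7 of the 27 with an empty vector mean of 0.2 CPM or more, 4 reached 0.5 CPM in WT, against 8.72% of 1090 tested genes in that range. Among the 20 with a lower empty vector mean, 0 did, against 2.93% of 546.

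Over the 27 genes, the WT level lay inside the range of the empty vector libraries for 11, above it for 9 and below it for 7. Over the 1636 tested genes under the empty vector limit, 21.5% lay above and 27.3% below. Each fusion library exceeded the WT level for all 27 genes, although the limit of 2 CPM favours this. The margin was narrowest for Ddit4l, whose lowest fusion library was 3.29 times the WT level, then Gm9987 (3.39 times) and Il7 (4.24 times), and it was 49.7 times for Fam13a. In the test of empty vector against WT, the choice had held the empty vector levels of the 27 genes low. They could therefore hardly be called higher with the empty vector, and nothing is read from their counts in it. The test of empty vector against WT called 0 genes of 16731 (0%) in edgeR's quasi-likelihood fit, with the spread taken from the replicated groups because WT is 1 library, and so 0 of the 27. At an unadjusted p under 0.05 that fit gave 746 genes, 6 of them among the 27. DESeq2 called 77 genes, 0 of them among the 27, and gave 935 genes at an unadjusted p under 0.05, again with 6 of the 27.

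**Figure D3:**
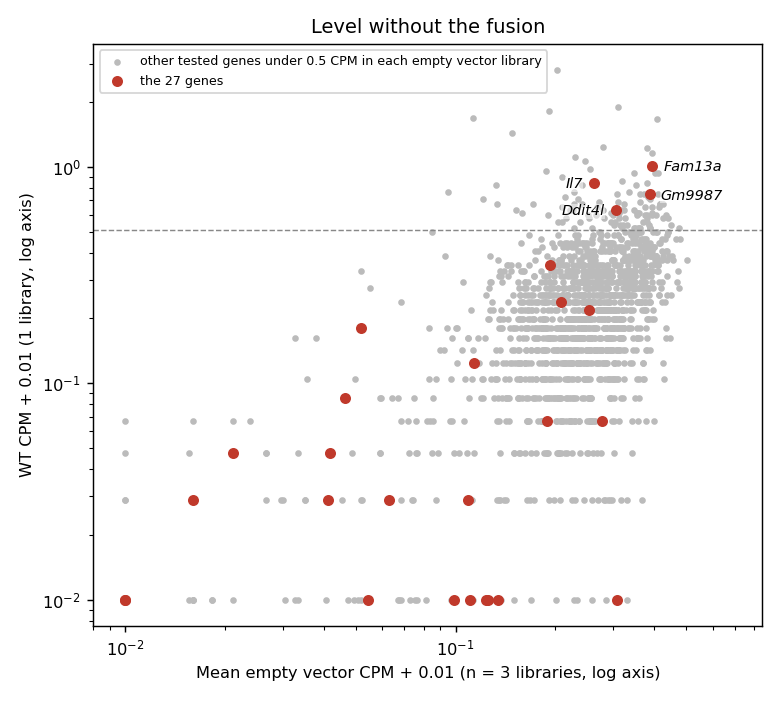
Level in the WT library (1 library) against the mean of the 3 empty vector libraries, both as CPM + 0.01 on log axes, for the 27 genes (large points) and the other tested genes under 0.5 CPM in each empty vector library (small points). The dashed line marks 0.5 CPM in WT, above which 4 of the 27 genes lie, all near the right edge of the empty vector range.

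Genes close to the limits show how the choice was made. Just inside the limit of 2 CPM in the lowest fusion library were Kcnh1 at 2.05, Myo16 at 2.05 and Ddit4l at 2.06 CPM, and just outside it Dapk1 at 1.90, Clca3b at 1.75 and Il20ra at 1.74 CPM. Just inside the limit of 0.5 CPM in the highest empty vector library were Ablim3 at 0.490, Gm9987 at 0.453 and Fam13a at 0.436 CPM, and just outside it Vgf at 0.671, Mfsd6 at 0.708 and Calr4 at 0.762 CPM. Dapk1 lay at 7.48, 13.1 and 1.90 CPM in fusion libraries, against 0.0336, 0.127 and 0.349 CPM in empty vector libraries, and so missed the limit through fusion replicate 3.

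The neighbours of the 27 genes did not enter the choice and could be tested. Fusion was compared with empty vector by edgeR's quasi-likelihood test over 16731 genes, which called 1.69% of them higher and 0.353% lower at an adjusted p of 0.05. The same fit called 26 of the 27 genes higher (all but Cftr), from which nothing is read because the choice used this contrast. Within 100 kb of them, 88 other genes were tested, around 23 of the 27. Of these 88, 6 rose with the fusion (6.82%) and 0 fell, and the median log2 fold change of the 88 was 0.19, against 0.01 over all tested genes. Among the 6, Clec4e and Afap1l1 passed the low-count filter only through their levels in the fusion libraries. Both could therefore hardly have been called lower, and nothing is read from their part in the share of 6.82%. With the replicate number as a block, 13 of the 88 were higher and 5 lower, against 7.63% and 5.5% of all genes.

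The 6 genes lay beside 5 of the 27. Sh3rf3, a ubiquitin ligase 0.217 kb from Gm9987, rose to 47.9 ± 8.86 CPM with the fusion, against 5.91 ± 1.34 CPM with the empty vector (SD, n = 3 each), a log2 fold change of 3.05 ± 0.26 (SE, edgeR adjusted p = 0.0016). Cbr1 and Cbr3, carbonyl reductases 17.6 and 52.8 kb from Gm5678 and both on the NRF2 list, rose by 2.29 ± 0.25 (SE, edgeR adjusted p = 0.0042) and 3.62 ± 0.34 on the log2 scale (SE, edgeR adjusted p = 0.0022). Ctsz, a lysosomal cysteine protease 11.7 kb from Tubb1, rose to 402 ± 42.0 CPM with the fusion, against 163 ± 11.1 CPM with the empty vector (SD, n = 3 each, edgeR adjusted p = 0.012). Sh3rf3, Cbr1 and Cbr3 passed in every alternative fit, whereas Ctsz missed the threshold without empty vector replicate 2 (adjusted p = 0.069) or fusion replicate 2 (adjusted p = 0.061).

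Clec4e, the partner lectin of Clec4d 6.52 kb away, lay at 0.666, 1.40 and 0.341 CPM in fusion libraries and had 0 reads in all empty vector libraries and in WT (edgeR adjusted p = 0.026). Its call was lost without empty vector replicate 2 (adjusted p = 0.066), fusion replicate 1 (0.059) or fusion replicate 2 (0.057), within a range of up to 0.066 over the alternatives. Afap1l1, an actin-filament-associated protein 12.7 kb from Ablim3, lay at 5.54, 7.38 and 1.37 CPM in fusion libraries, against 0.0503, 0.0545 and 0.324 CPM in empty vector libraries and 0.0946 CPM in WT (log2 fold change 5.19, edgeR adjusted p = 0.026). Its adjusted p was 0.054 with the replicate block, 0.061 without empty vector replicate 1, 0.11 without empty vector replicate 2, 0.062 without fusion replicate 1 and 0.076 without fusion replicate 2. Vipr2, the gene across which Gm20658 lies, had 8.36 ± 5.05 CPM with the fusion, against 1.79 ± 0.544 CPM with the empty vector (SD, n = 3 each), with an edgeR adjusted p of 0.060, and of 0.0091 with the replicate block. The strand setting is unknown, so reads of Vipr2 and Gm20658 may lie in both counts.

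**Figure D4:**
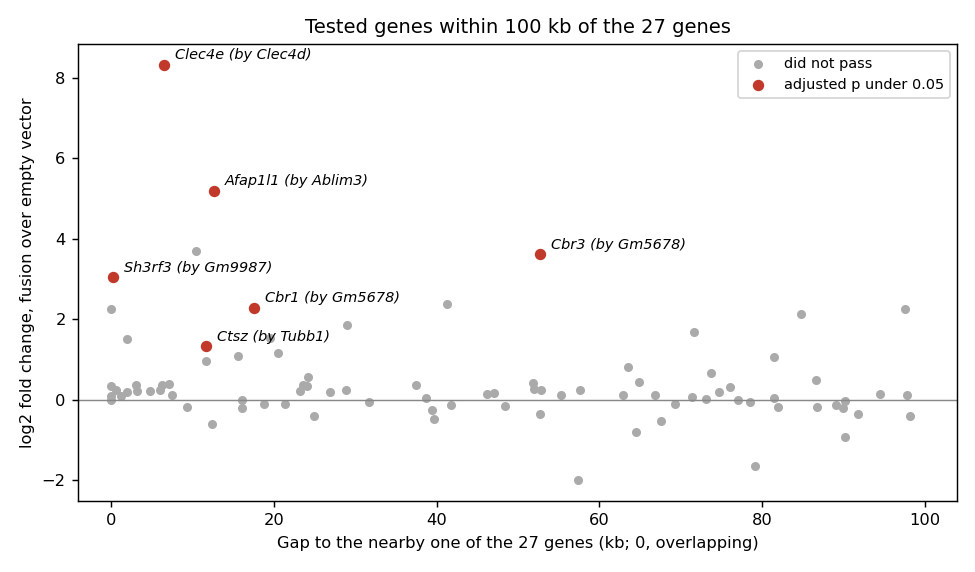
The 88 tested genes within 100 kb of the 27 genes, by the gap to the nearby one of the 27 (kb) and the log2 fold change of fusion over empty vector from edgeR. Red points passed an adjusted p of 0.05 and carry their name and that of the nearby gene, and the other points lie mostly between -1 and 1. The fitted change of Clec4e depends on the prior count, because its empty vector reads were 0.

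Relatives of the 27 genes were read for whole families, with 137 relatives in 17 families, of which 80 were tested. Of these, 2 rose with the fusion (2.5%, against 1.69% of all genes) and 1 fell, with a median log2 fold change of -0.02. Clec4e, 1 of the 2, was also counted among the neighbours and passed the low-count filter only through the fusion libraries. Most relatives showed no call, and 0 of 7 tested tubulins and 0 of 26 tested kelch-like genes passed. With the replicate block 9 of the 80 were higher and 4 lower, against 7.63% and 5.5% of all genes. That block ended both zeros: Klhl22, Klhl21 and Klhl24 were then higher (edgeR adjusted p = 0.0020, 0.0059 and 0.010), Klhl7 and Klhl1 lower (0.015 and 0.027) and Tubb2a higher (0.048).

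The Sprr family had 16 relatives, of which 4 could be tested and 0 passed. Sprr2h, 10.5 kb from Sprr2g, lay at 0.800, 2.72 and 0.152 CPM in fusion libraries, against 0.0503, 0.0363 and 0.224 CPM in empty vector libraries and 0.0378 CPM in WT, so that the groups overlapped (log2 fold change 3.71, edgeR adjusted p = 0.16). Sprr1a lay at 3.37, 22.8 and 2.58 CPM in fusion libraries, against 4.4, 9.28 and 11.9 CPM in empty vector libraries and 3.16 CPM in WT. Sprr1a was highest in fusion replicate 2, as Sprr2g was, but its group ranges overlapped. Of the R-spondins, Rspo3 averaged 5.05 ± 2.77 CPM with the fusion, against 0.717 ± 0.591 CPM with the empty vector (SD, n = 3 each), with an edgeR adjusted p of 0.094. The WT level of Rspo3, 3.58 CPM, lay inside the fusion range of 1.86 to 6.82 CPM and above all empty vector libraries. Rspo2 averaged 25.6 ± 17.2 CPM with the fusion, against 19.6 ± 7.84 CPM with the empty vector (edgeR adjusted p = 0.96).

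The relatives that passed were Clec4e, given above, Abhd4 and Kirrel3. Abhd4, a lipase for N-acyl phospholipids, rose to 105 ± 17.3 CPM with the fusion, against 46.3 ± 3.88 CPM with the empty vector (SD, n = 3 each, log2 fold change 1.20, edgeR adjusted p = 0.025). Kirrel3, an adhesion relative of Kirrel2, fell to 3.02 ± 0.589 CPM with the fusion, against 8.11 ± 1.23 CPM with the empty vector (SD, n = 3 each, log2 fold change -1.40, edgeR adjusted p = 0.043). Leaving out single libraries gave adjusted p up to 0.11 for Abhd4 (lost in 5 of 6 cases, all but fusion replicate 3) and up to 0.17 for Kirrel3 (lost in all 6 cases).

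The pathways of both fusion partners give the setting in which the 27 genes were read. Of the 55 listed NRF2 targets 51 were tested, 25 rose with the fusion and 0 fell, against 1.69% higher and 0.353% lower of all tested genes, with a median log2 fold change of 1.19 against 0.01 over all genes. Nqo1, the quinone reductase, averaged 274 ± 64.0 CPM with the fusion, against 58.6 ± 12.4 CPM with the empty vector (SD, n = 3 each, log2 fold change 2.24, edgeR adjusted p = 0.0052). Of the 30 PAX8-linked genes 11 were tested, 2 rose and 0 fell, against the same shares of all genes, with a median log2 fold change of 0.77. Wnt4, a ligand of kidney tubule formation, averaged 1.02 ± 0.115 CPM with the fusion, against 0.152 ± 0.0694 CPM with the empty vector (SD, n = 3 each, log2 fold change 2.76, edgeR adjusted p = 0.021). Tg, thyroglobulin, averaged 2.34 ± 1.46 CPM with the fusion, against 0.371 ± 0.129 CPM with the empty vector (SD, n = 3 each, log2 fold change 2.63, edgeR adjusted p = 0.048), and lay at 1.21 CPM in WT. Both PAX8-linked calls were lost without empty vector replicate 1 or 2 or fusion replicate 1 or 2, with adjusted p of up to 0.073 for Wnt4 and 0.16 for Tg, and Tg also without either replicate 3. With the replicate block, 46 NRF2 targets were higher and 0 lower, and 4 PAX8-linked genes were higher and 2 lower, against 7.63% higher and 5.5% lower of all genes.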

How the data were processed

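RNA-seq gene counts of 7 TRAMP-C1 libraries were used. The deposited values are whole-number read counts per gene, 1 table per lane, made by the authors with STAR and HTSeq on GRCm38, per the submitters' processing notes. Neither their versions nor the annotation release or strand handling is stated in the labels. Lanes were summed. CPM divide a count by the library's sum over gene rows. Rows that name no gene stayed out: reads outside genes were 5.73 to 6.93%, multiply aligned reads 36.1 to 45.3% and ambiguous ones 1.22 to 1.48% of a library's total.

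Symbols, positions and overlaps come from GENCODE M21 on GRCm38, and 50-base windows were compared over its transcripts. Fusion was compared with empty vector in 6 libraries with edgeR 4.0.16 (R 4.3.3): TMM, filterByExpr at a minimum count of 10, robust quasi-likelihood F tests, and p-values adjusted by Benjamini-Hochberg over 16731 genes, called at 0.05. The fit was tested on simulated counts. Empty vector was compared with WT over the same genes in all 7 libraries. Both comparisons share the empty vector libraries. DESeq2 1.42.0 was an alternative. Other alternatives were other limits, size factors and filters, and libraries left out. Limits for 0 counts (3 counts) and intervals cover counting error only, as reads carry no molecular identifiers.

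Fusion and empty vector libraries share replicate numbers. Deviations from the group means, over genes with a mean of 1 CPM or more, had correlations of 0.699, 0.690 and 0.660 between same-numbered libraries. Between others the correlations were -0.0427 to -0.569. Deviations within a group cancel out for each gene, so positive same-numbered values push the others below zero, and the latter add no support. The numbers were taken to pair the samples from the same-numbered values. No label gives a shared day or batch, so the pairing rests on these values. The main fits did not use the pairing, and calls and adjusted p come from unpaired fits unless the replicate block is named. With the block 1276 genes were higher and 920 lower with the fusion, against 282 and 59 without it. Empty vector replicate 3 and fusion replicate 3 came from lanes 1 and 2, the others from lanes 5 and 6. For number 3, a shared sample and shared lanes therefore cannot be told apart, either in the correlation of 0.660 or in the replicate block.

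The genes, lists, families and tests were chosen with earlier results of these data known. Values are given for 26 of the 27 genes, and some items are not reported here. The rule for named genes covered the 12 with the highest fusion mean, those with 0 empty vector reads, those at 0.5 CPM or more in WT, the 5 largest and 5 smallest spreads, non-coding genes and genes next to the limits. Neighbours and relatives were named after their values were seen where they passed the test or served as contrast.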

Additional observations from a re-analysis of the deposited data

How the results depend on the processing

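The number of genes that met the limits and stayed after the exclusions was 27. It was 16 with an empty vector limit of 0.25 CPM, 62 with a fusion limit of 1 CPM and 11 with one of 4 CPM, 28 to 36 when 1 library was left out of the rule, and 48 without both libraries numbered 3, an alternative chosen after seeing the data. The number at 0.5 CPM or more in WT, 4 of the 27, became 0 and 10 with empty vector limits of 0.25 and 1 CPM, 10 and 1 with fusion limits of 1 and 4 CPM, 1 at a WT level of 1 CPM, 4 to 7 with 1 library left out and 11 without both libraries numbered 3. Genes called between fusion and empty vector, 341 in edgeR, numbered 922 in DESeq2, 530 without the low-count filter, 2196 with the replicate block and 139 to 373 with 1 library left out. With the replicate block, calls were 46 of the NRF2 list (16 to 23 with 1 library left out), 4 higher of the PAX8-linked list (0 to 1, and 0 without both libraries numbered 3), 13 neighbours (3 to 9) and 9 relatives (0 to 4). In DESeq2, 12 neighbours and 6 relatives were called higher. Empty vector against WT gave 77 calls in DESeq2, 15 without the filter, 20 with the replicate block and 0 to 5 with 1 library left out, with 0 of the 27 genes in each. The looser motif gave 8 genes in place of 3. No result changed direction. Depth limits the lowest values: a count of 0 allows up to 0.0503 to 0.114 CPM in a library, and up to 0.0568 CPM in the WT library.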
